A study of Mus musculus with 35 samples.

Results

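Expression of 7 genes of the mouse HoxA cluster, *Hoxa2*, *Hoxa3*, *Hoxa4*, *Hoxa5*, *Hoxa6*, *Hoxa7* and *Hoxa10*, was followed across mouse blood progenitors that carried an empty vector or a form of NUP98-HOXA9. The genes were chosen by name from the 49671 genes of the deposited count table and *Hoxa9* itself was left out of the set. All 7 passed the filter on low counts, as did 17166 genes in all. *Hoxa9*, *Hoxa11* and *Hoxa13* of the same cluster are used here for comparison only.

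Hox genes encode transcription factors that bind DNA through a homeodomain, often beside partners of the PBX and MEIS families, and they lie in clusters in which gene order follows the order of expression along the body axis. In bone marrow the HoxA genes are active in stem and progenitor cells and are silenced as cells mature, a state kept by Polycomb complexes and opposed by trithorax proteins such as KMT2A. NUP98-HOXA9 is a leukemia fusion that joins the disordered N-terminal part of the nucleoporin NUP98, rich in phenylalanine-glycine (FG) motifs, to the homeodomain of HOXA9. Persistent activity of HoxA genes is a hallmark of leukemias with NUP98 or KMT2A fusions.

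All 35 libraries came from lineage-negative hematopoietic stem and progenitor cells (HSPC) of C57Bl/6 mice, transduced with a lentivirus, sorted after 2 days and grown for 1 week in methylcellulose with cytokines and GM-CSF. The 7 groups held 5 libraries each. Empty cells carried the vector with mCherry alone and were sorted on mCherry, whereas all other groups carried an mEGFP-tagged fusion and were sorted on both colors. G-NHX9 was the unmutated fusion. G-NHX9-8FA had 8 phenylalanines of the FG-rich region changed to alanine, and G-NHX9-21FGAA had 21 FG pairs near the end of that region changed to alanines. G-NHX9-midi kept only the C-terminal portion of the NUP98 region and lacked the GLEBS segment, and G-NHX9-midi-21FGAA had the same 21 pairs changed in that shorter protein, which left it without FG motifs. G-NHX9-DDNA had the complete FG-rich region and a homeodomain mutated to weaken its binding to DNA. Every mutant protein thus kept a HOXA9 part, marrow came from both sexes, and the cells were mixed populations after culture rather than a purified cell type. Mice were 8 weeks old by the labels, except for Empty replicates 4 and 5 at 9 and 10 weeks and G-NHX9 replicate 1 at 11 weeks.

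Library totals ranged from 31559914 to 75810659 counts, so that the limit allowed by a count of 0 (3 counts) corresponded to 0.0396 to 0.0951 CPM (counts scaled to a common library total). Levels below are CPM on library sizes scaled by TMM, written as mean ± SD of 5 libraries, and intervals from counts cover counting error only. All 13 stem and progenitor markers on the list were detected, and the summed macrophage markers stood at 28414 to 39057 CPM in Empty and 5436 to 14496 CPM in G-NHX9. Of the 10 macrophage markers, 4 were lower in G-NHX9 (*Cd68*, *Mrc1*, *Marco* and *Lyz2*) and 3 were higher (*C1qa*, *C1qb* and *C1qc*). Their median log2 fold change was -0.07, and 15.2% and 16.9% of all genes were lower and higher. Mature marker lists moved with the constructs, as 9 of 10 erythroid markers were lower than Empty in G-NHX9-8FA (13.2% of all genes were lower) and 8 of 10 in G-NHX9-midi (20%), whereas 6 were higher in G-NHX9-21FGAA and 8 in G-NHX9-midi-21FGAA (14.7% and 9.59% of all genes). All 6 megakaryocyte markers tested, all 8 eosinophil markers and 7 of 9 mast cell and basophil markers were lower in G-NHX9-8FA and in G-NHX9-midi, and 3, 5 and 6 of them were lower in G-NHX9 (15.2% of all genes). Of 12 neutrophil markers, 8 were higher in G-NHX9-8FA (13.4% of all genes) and 7 in G-NHX9-DDNA (9.85%). Stem and progenitor markers passed the test as higher in 7 of 13 cases in G-NHX9 (16.9% of all genes) and 9 of 13 in G-NHX9-21FGAA. Lymphoid markers summed to 1.97 to 8.09 CPM over the 35 libraries. In such bulk libraries, fewer cells of a type and less RNA per cell cannot be told apart, and the part of these cell mixtures in the levels below was not tested.

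The 7 genes lie on the minus strand of chromosome 6 (GRCm38, GENCODE M21 annotation), in the order *Hoxa2* (52162417 to 52164831), *Hoxa3* (52169062 to 52213336), *Hoxa4* (52189671 to 52191753), *Hoxa5* (52201754 to 52204587), *Hoxa6* (52206288 to 52208722), *Hoxa7* (52214491 to 52221854) and *Hoxa10* (52231197 to 52240854). The annotated span of *Hoxa3*, taken over its 4 transcripts, includes *Hoxa4*, *Hoxa5* and *Hoxa6*. Exons of *Hoxa2* and *Hoxa3* shared 267 and 482 bp with the same-strand model *Gm28308*, which held at most 4 counts in any library. Antisense genes overlapped 25.4% of the exon bases of *Hoxa3*, 20.4% of *Hoxa7* and 16.0% of *Hoxa4*, and whether counting used the strand was not given in the sources used here. *Hoxa9* (52223100 to 52231089) lies between *Hoxa7* and *Hoxa10*, with 107 bases between the annotated ends of *Hoxa9* and *Hoxa10*. The longest run of identical bases between a *Hoxa9* transcript and a transcript of the 7 genes ranged from 13 bases (*Hoxa2* and *Hoxa5*) to 25 bases (*Hoxa7*).

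To set the later values beside the DNA at the start sites, 300-base windows (250 bases before to 50 after the start) were read from the RefSeq promoter table (GRCm38.p6), which held 7 windows for 6 of the 7 genes and none for *Hoxa4*. Both strands were searched for TGATTNAT, the motif of HOX-PBX pairs, TGACAG, a MEIS motif, and TAATTA, a homeobox core. Matches are in capitals, each sequence reads 5′ to 3′ on the minus strand, and the start is at base 251. The windows of *Hoxa2* and *Hoxa3* are shown because they held the matches, that of *Hoxa5* because it is a dense CpG window of a gene with a high level per kb in G-NHX9, and both of *Hoxa10* because its levels followed another order.
*Hoxa2*: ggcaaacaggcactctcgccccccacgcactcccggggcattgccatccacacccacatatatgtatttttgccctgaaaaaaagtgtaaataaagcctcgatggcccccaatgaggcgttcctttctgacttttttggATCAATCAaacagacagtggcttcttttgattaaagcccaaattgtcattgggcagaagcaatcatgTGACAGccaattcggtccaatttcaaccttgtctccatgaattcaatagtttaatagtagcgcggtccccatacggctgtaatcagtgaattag
*Hoxa3*: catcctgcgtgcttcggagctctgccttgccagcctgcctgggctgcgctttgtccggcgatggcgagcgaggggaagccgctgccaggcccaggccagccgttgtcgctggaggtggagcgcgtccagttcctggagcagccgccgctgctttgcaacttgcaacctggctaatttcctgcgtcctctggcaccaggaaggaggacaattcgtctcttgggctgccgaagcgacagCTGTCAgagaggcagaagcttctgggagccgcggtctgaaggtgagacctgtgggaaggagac
*Hoxa5*: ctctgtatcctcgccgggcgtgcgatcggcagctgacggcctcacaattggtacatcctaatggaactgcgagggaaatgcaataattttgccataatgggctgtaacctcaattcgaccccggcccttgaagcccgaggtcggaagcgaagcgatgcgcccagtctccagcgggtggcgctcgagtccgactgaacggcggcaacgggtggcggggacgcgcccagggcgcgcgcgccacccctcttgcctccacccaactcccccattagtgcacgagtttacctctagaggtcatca
*Hoxa10*, window at the lower coordinate: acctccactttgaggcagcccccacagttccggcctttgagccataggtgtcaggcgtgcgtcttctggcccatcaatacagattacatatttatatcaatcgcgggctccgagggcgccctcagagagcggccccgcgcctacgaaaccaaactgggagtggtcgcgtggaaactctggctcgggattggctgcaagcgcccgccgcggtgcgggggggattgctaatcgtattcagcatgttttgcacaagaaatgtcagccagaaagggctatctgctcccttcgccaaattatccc
*Hoxa10*, window at the higher coordinate: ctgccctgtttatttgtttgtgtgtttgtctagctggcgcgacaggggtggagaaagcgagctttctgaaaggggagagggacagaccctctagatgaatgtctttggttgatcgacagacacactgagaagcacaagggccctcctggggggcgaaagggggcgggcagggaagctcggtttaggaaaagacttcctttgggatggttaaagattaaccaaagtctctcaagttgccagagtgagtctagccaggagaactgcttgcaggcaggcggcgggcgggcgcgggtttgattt
The *Hoxa2* window, chr6:52164782-52165081, held a HOX-PBX match on the reverse strand at base 140 and a MEIS match at base 207. Of all 32817 distinct promoter windows of this length, 3.22% held the HOX-PBX motif, 19.2% the MEIS motif and 5.3% the homeobox core. The *Hoxa3* window, chr6:52213018-52213317, held a MEIS match on the reverse strand at base 238. The windows of *Hoxa5* (chr6:52204538-52204837), *Hoxa6*, *Hoxa7* and *Hoxa10* (chr6:52234890-52235189 and chr6:52240805-52241104) held none of the 3 motifs, which says only that these letters are not in these windows. The *Hoxa5* window held 29 CpG and a GC content of 61.7%, against a median of 7 CpG and 52.7% over all promoters. Windows of *Hoxa6* (26 CpG, 62%) and *Hoxa3* (20, 64%) were also dense, as was the lower *Hoxa10* window (21, 57.3%). The higher *Hoxa10* window held 12 CpG (54.3%). Those of *Hoxa2* and *Hoxa7* held 9 CpG each, at 45.7% and 55.7%. A relation of CpG to level was not tested. A match is a description of letters and not of binding.

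In the presence of G-NHX9 all 7 genes rose, and 6 of them reached 1.46 ± 0.66 (*Hoxa2*) to 18.8 ± 2.21 CPM (*Hoxa7*), from means of 0.0262 (*Hoxa2*) to 0.58 CPM (*Hoxa7*) in Empty. *Hoxa4* was the exception in size, at 0.384 ± 0.0966 CPM in Empty and 0.973 ± 0.394 CPM in G-NHX9. With edgeR's quasi-likelihood test and Benjamini-Hochberg adjustment over all 17166 genes, 7 of 7 genes were higher than Empty in G-NHX9 and in G-NHX9-8FA, 6 in G-NHX9-midi (not *Hoxa4*), 5 in G-NHX9-21FGAA (not *Hoxa4* or *Hoxa10*), 2 in G-NHX9-midi-21FGAA (*Hoxa5* and *Hoxa6*) and 1 in G-NHX9-DDNA (*Hoxa10*). The share of all tested genes called higher was 16.9%, 13.4%, 20.5%, 14.7%, 9.59% and 9.85% in the same order. No gene of the 7 was lower than Empty in any group by edgeR, also at an unadjusted p under 0.05. The share of all genes called lower was 15.2%, 13.2%, 20%, 12.5%, 7.32% and 7.35%. The median log2 fold change of the 7 genes was 5.79, 5.12, 4.55, 2.86, 1.24 and 0.81, while that of all tested genes lay between -0.02 and 0.03. Without TMM scaling the median of all genes lay between 0.08 and 0.19 in these comparisons, and no direction of these calls changed.

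**Figure D1:**
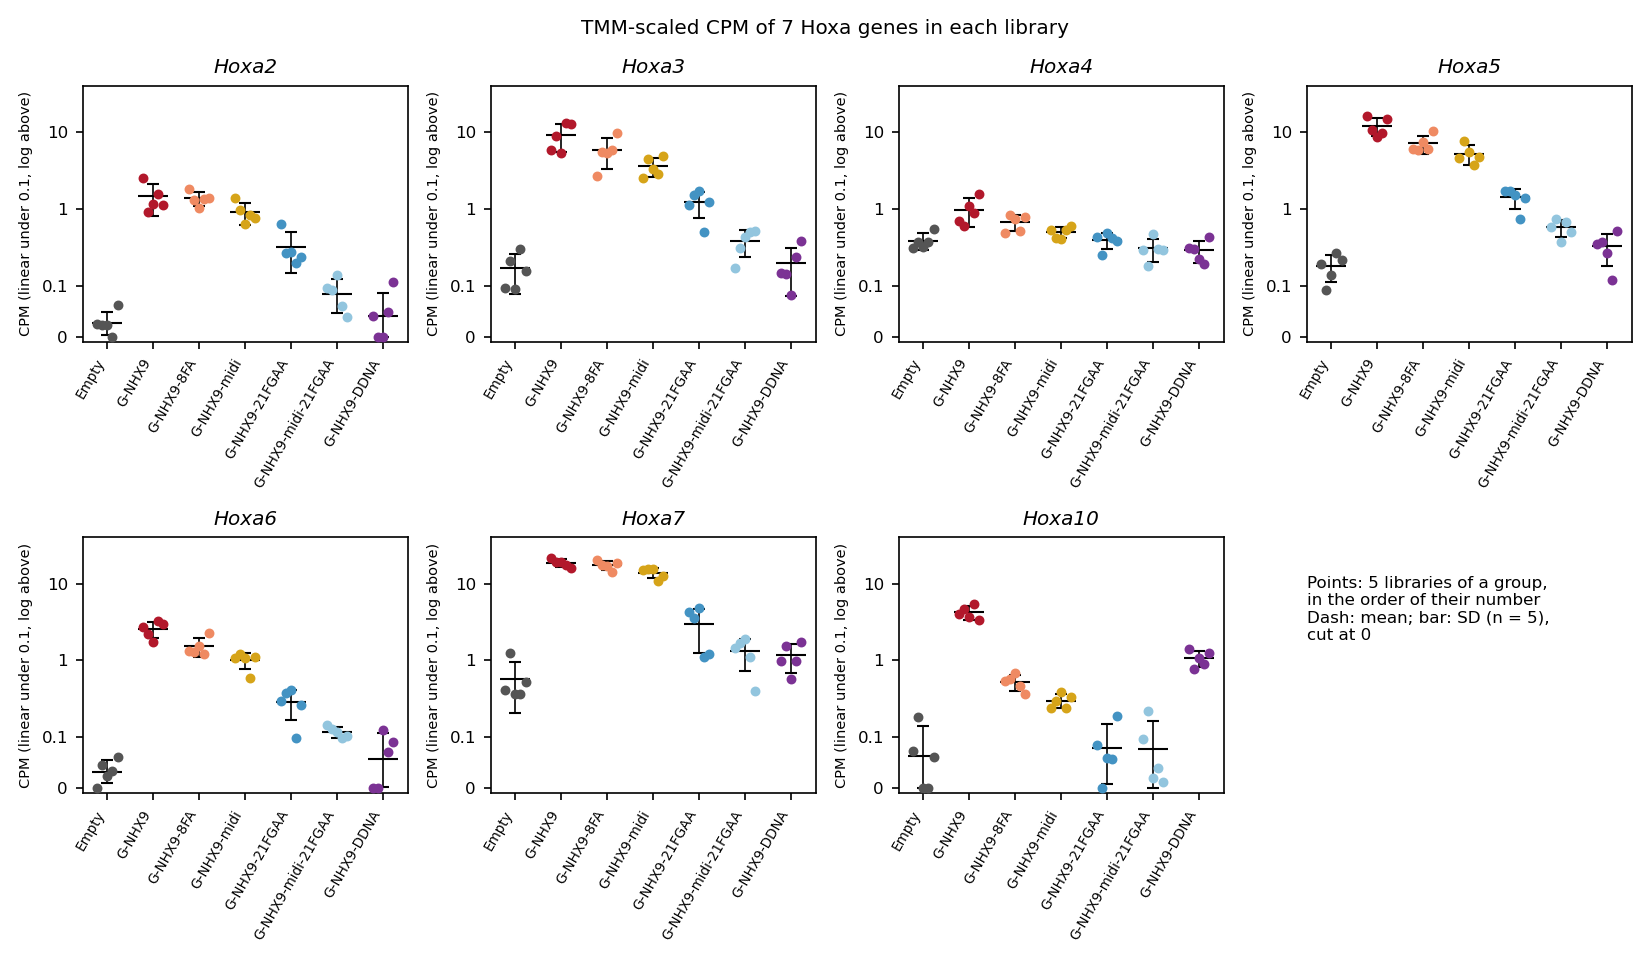
Level of each gene in each of the 35 libraries, in CPM (y axis, linear under 0.1 and logarithmic above), with 7 groups on the x axis. Points are libraries, dashes the mean and bars the SD of 5 libraries. From *Hoxa2* to *Hoxa7*, *Hoxa4* apart, levels step down from G-NHX9 to G-NHX9-DDNA, whereas *Hoxa10* stands at 0.772 to 1.40 CPM in G-NHX9-DDNA, above G-NHX9-8FA.

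*Hoxa2*, a patterning gene of the hindbrain, was near the detection limit in Empty. Its Empty libraries, replicates 1 to 5, held 1, 1, 1, 0 and 2 counts. G-NHX9 libraries stood at 2.56, 0.909, 1.16, 1.58 and 1.12 CPM, G-NHX9-8FA libraries at 1.84, 1.32, 1.03, 1.33 and 1.41 CPM, and G-NHX9-midi libraries at 1.39, 0.96, 0.634, 0.829 and 0.762 CPM. These 3 groups overlapped one another and lay wholly above the rest except for G-NHX9-21FGAA replicate 1, at 0.638 CPM, just above the lowest G-NHX9-midi library. The other G-NHX9-21FGAA libraries ranged from 0.197 to 0.274 CPM, and G-NHX9-midi-21FGAA from 0.0382 to 0.137 CPM. Given the few counts in Empty, the change is best read as a ratio of scaled counts, which was 54.9 (95% counting interval 23.2 to 170) for G-NHX9, 52.7 (22.3 to 164) for G-NHX9-8FA, 35.2 (14.8 to 110) for G-NHX9-midi, 12.0 (4.92 to 37.8) for G-NHX9-21FGAA, 3.04 (1.12 to 10.3) for G-NHX9-midi-21FGAA and 1.52 (0.457 to 5.77) for G-NHX9-DDNA. In G-NHX9-DDNA, 2 of 5 libraries held 0 counts of *Hoxa2*.

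*Hoxa3*, needed for the thymus and pharyngeal organs, rose from 0.169 ± 0.0861 CPM in Empty to 9.24 ± 3.70 CPM in G-NHX9 (log2 fold change 5.79, SE 0.44, edgeR adjusted p = 5e-12). G-NHX9 libraries stood at 5.83, 8.99, 5.39, 13.03 and 12.97 CPM, a wider spread than for *Hoxa7*. G-NHX9-8FA ranged from 2.66 to 9.62 CPM, G-NHX9-midi from 2.53 to 4.88 CPM and G-NHX9-21FGAA from 0.493 to 1.70 CPM, so that the first pair of these overlapped and the last lay apart. G-NHX9-midi-21FGAA ranged from 0.168 to 0.522 CPM, with 4 of 5 libraries above every Empty library. That difference missed the threshold (log2 1.24, SE 0.47, edgeR adjusted p = 0.064), and it passed without G-NHX9-midi-21FGAA replicate 1 (adjusted p = 0.036) and in the fit with a replicate block (adjusted p = 0.033). G-NHX9-DDNA libraries, at 0.0819 to 0.381 CPM, overlapped Empty libraries, at 0.0924 to 0.299 CPM.

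*Hoxa4* was the gene that responded least in G-NHX9. Empty libraries stood at 0.312, 0.367, 0.323, 0.365 and 0.551 CPM and G-NHX9 libraries at 0.695, 0.592, 1.10, 0.890 and 1.59 CPM. The groups did not overlap, and the log2 fold change was 1.34 (SE 0.27, edgeR adjusted p = 0.00019), a fold of 2.54. G-NHX9-8FA, at 0.489 to 0.823 CPM, overlapped the highest Empty library and was higher by log2 0.81 (SE 0.27, edgeR adjusted p = 0.023), a call that was lost without Empty replicate 1 or 3 or without G-NHX9-8FA replicate 2, 3 or 5 (adjusted p from 0.051 to 0.067). In G-NHX9-midi the log2 difference was 0.39 (95% interval -0.14 to 0.93). In G-NHX9-21FGAA the mean was 0.393 CPM, within the Empty range of 0.312 to 0.551 CPM. The means of G-NHX9-midi-21FGAA and G-NHX9-DDNA, 0.306 and 0.291 CPM, lay below every Empty library. So did 4 of 5 libraries in each of these groups. Neither difference from Empty passed the threshold, at log2 -0.32 (95% interval -0.87 to 0.23) and -0.38 (-0.94 to 0.17).

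*Hoxa5*, a regulator of lung and trunk patterning, stood at 0.192, 0.0918, 0.139, 0.265 and 0.214 CPM in Empty. In G-NHX9 it reached 16.2, 10.8, 8.75, 9.74 and 14.9 CPM, and in G-NHX9-8FA 6.06, 5.92, 7.37, 6.03 and 10.3 CPM. The log2 fold change of G-NHX9 against Empty was 6.09 (SE 0.33, edgeR adjusted p = 3.6e-15), and 4 of 5 G-NHX9-8FA libraries lay below every G-NHX9 library. G-NHX9-midi stood at 4.6, 7.77, 5.48, 3.74 and 4.74 CPM and G-NHX9-21FGAA at 1.72, 1.70, 1.51, 0.732 and 1.38 CPM. G-NHX9-midi-21FGAA, at 0.577, 0.746, 0.372, 0.670 and 0.497 CPM, was still above every Empty library (log2 1.69, SE 0.35, edgeR adjusted p = 0.0015). In G-NHX9-DDNA the libraries held 0.351, 0.374, 0.266, 0.119 and 0.515 CPM, and 4 of 5 lay above every Empty library. That last difference (log2 0.89, SE 0.37, edgeR adjusted p = 0.098) missed the threshold with all libraries and passed it without G-NHX9-DDNA replicate 4 (adjusted p = 0.038).

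*Hoxa6*, which lies beside *Hoxa5*, held 0, 2, 1, 1 and 2 counts in the Empty libraries. G-NHX9 libraries stood at 2.75, 2.20, 1.74, 3.26 and 3.02 CPM. The ratio of scaled counts to Empty was 82.9 (95% counting interval 37.8 to 227) in G-NHX9, 47.3 (21.5 to 130) in G-NHX9-8FA, 32.3 (14.6 to 88.9) in G-NHX9-midi, 8.73 (3.82 to 24.6) in G-NHX9-21FGAA, 3.69 (1.52 to 10.8) in G-NHX9-midi-21FGAA and 1.83 (0.649 to 5.87) in G-NHX9-DDNA. The groups thus came in the same order as for *Hoxa2*. All 5 G-NHX9-midi-21FGAA libraries, at 0.0986 to 0.144 CPM, exceeded every Empty library (edgeR adjusted p = 0.039), but this call was lost when any library other than Empty replicate 5 was left out (adjusted p from 0.052 to 0.089). In G-NHX9-DDNA, replicates 1 and 2 held 0 counts and the others 6, 3 and 4.

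*Hoxa7*, an insertion target in mouse myeloid leukemia, rose in all 5 G-NHX9 libraries. Empty libraries stood at 0.408, 1.24, 0.370, 0.365 and 0.520 CPM. G-NHX9 libraries held 21.8, 19.2, 19.4, 17.4 and 16.0 CPM, G-NHX9-8FA 20.5, 17.3, 16.8, 14.1 and 18.9 CPM, and G-NHX9-midi 15.2, 15.5, 15.5, 10.7 and 12.7 CPM. G-NHX9 and G-NHX9-8FA overlapped, and their log2 difference was -0.10 (95% interval -0.74 to 0.54). G-NHX9-21FGAA fell into unequal libraries, 4.29, 3.58 and 4.75 CPM in replicates 1 to 3 and 1.10 and 1.22 CPM in replicates 4 and 5, and the latter lay below Empty replicate 2. Its log2 fold change against Empty was nevertheless 2.33 (SE 0.40, edgeR adjusted p = 7.4e-05). G-NHX9-midi-21FGAA stood at 1.47, 1.71, 1.90, 1.10 and 0.395 CPM and G-NHX9-DDNA at 0.992, 1.54, 0.573, 0.974 and 1.72 CPM. Both groups overlapped Empty, and both comparisons turned on single libraries. Against Empty the edgeR adjusted p was 0.05, not under the threshold, for G-NHX9-midi-21FGAA, and became 0.012 without Empty replicate 2, 0.017 without G-NHX9-midi-21FGAA replicate 5 and 0.029 with a replicate block. For G-NHX9-DDNA it was 0.1, and 0.025 without Empty replicate 2.

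In the fit with a replicate block, which compares same-numbered libraries, the count of the 7 genes higher than Empty in G-NHX9-midi-21FGAA was 4 instead of 2, adding *Hoxa3* and *Hoxa7*. That comparison was one of those in which replicate numbers paired the samples.

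*Hoxa10*, at the far end of the set and itself able to drive myeloid proliferation when overexpressed, behaved differently. Empty libraries held 3, 8, 0, 0 and 2 counts. G-NHX9 libraries reached 4.03, 4.63, 3.68, 5.49 and 3.35 CPM, whereas G-NHX9-8FA libraries held 0.536, 0.567, 0.690, 0.462 and 0.367 CPM and G-NHX9-midi libraries 0.239, 0.300, 0.389, 0.241 and 0.329 CPM. The drop from G-NHX9 to either mutant left no overlap. G-NHX9-21FGAA held 4, 0, 3, 4 and 8 counts and G-NHX9-midi-21FGAA 4, 12, 1, 2 and 1 counts, both overlapping the 0 to 8 counts of Empty. G-NHX9-DDNA libraries stood at 1.40, 0.772, 1.06, 0.903 and 1.23 CPM, all above every library of G-NHX9-8FA and G-NHX9-midi. *Hoxa10* was the only one of the 7 genes for which G-NHX9-DDNA exceeded those 2 groups.

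For *Hoxa10* the log2 fold change against Empty was 5.93 in G-NHX9 (SE 0.51, edgeR adjusted p = 1e-10), 3.95 in G-NHX9-DDNA (SE 0.52, 5.3e-05), 2.93 in G-NHX9-8FA (SE 0.55, 0.00012) and 2.12 in G-NHX9-midi (SE 0.58, 0.0034). In G-NHX9-21FGAA and G-NHX9-midi-21FGAA it was 0.15 (95% interval -1.20 to 1.5) and 0.14 (-1.20 to 1.48). These sizes depended on Empty replicate 2, which held 8 of the 13 Empty counts. Without it the 4 called values were 6.85, 4.89, 3.85 and 3.04, and all 4 stayed past the threshold. Directly compared, G-NHX9-DDNA was higher than G-NHX9-8FA by log2 1.02 (SE 0.39, edgeR adjusted p = 0.043) and higher than G-NHX9-midi by 1.83 (SE 0.42, 0.00066).

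**Figure D2:**
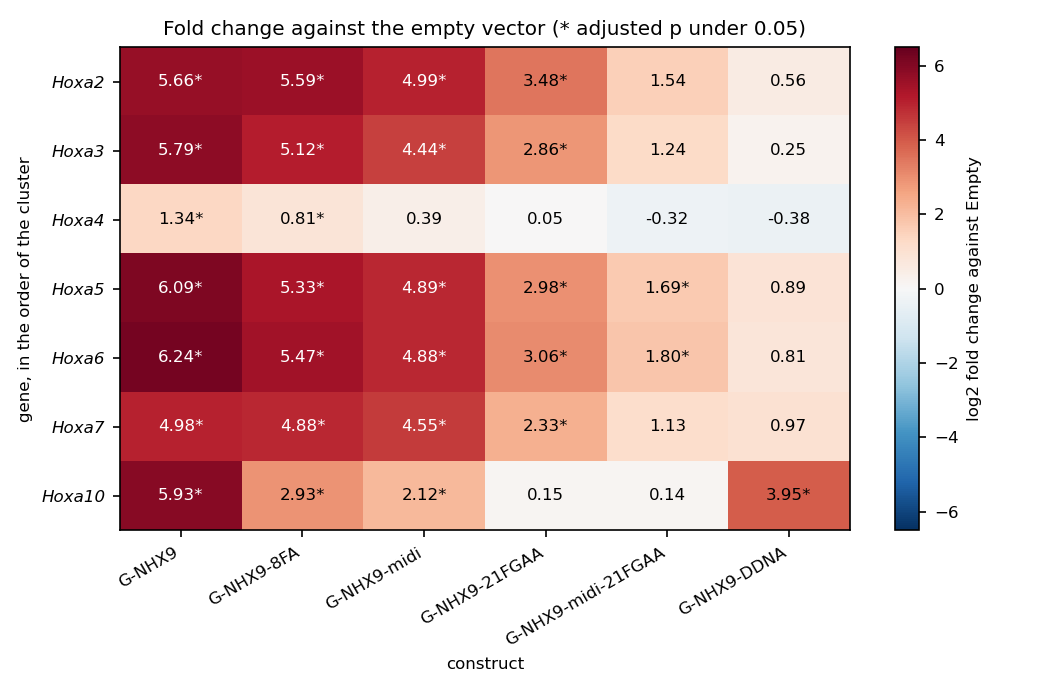
Fitted log2 fold change of each gene (rows, in cluster order) against Empty for the 6 constructs (columns), from edgeR over 35 libraries, with stars at an adjusted p under 0.05. Values for *Hoxa2* and *Hoxa6* rest on 5 and 6 counts in all Empty libraries together. *Hoxa4* stays pale throughout, and *Hoxa10* is strong in G-NHX9 (5.93) and in G-NHX9-DDNA (3.95), where no other gene has a star.

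To ask how single changes to the protein differed from the unmutated fusion, G-NHX9-8FA, G-NHX9-midi, G-NHX9-21FGAA and G-NHX9-DDNA were each compared with G-NHX9, while G-NHX9-midi-21FGAA, which combines 2 of them, was compared with G-NHX9-midi. Of the 7 genes, 2 were lower in G-NHX9-8FA (8.04% of all genes), 5 in G-NHX9-midi (11.2%), 7 in G-NHX9-21FGAA (8.34%) and 7 in G-NHX9-DDNA (11.4%), and none was higher, by edgeR, also at an unadjusted p under 0.05. The median log2 difference of the 7 genes was -0.67, -1.20, -2.94 and -5.10 in the same order. In G-NHX9-8FA the genes called were *Hoxa10*, lower by log2 -3.0 (SE 0.40, edgeR adjusted p = 2.3e-06), and *Hoxa5*, at -0.76 (SE 0.24, 0.03). The *Hoxa5* call was lost without G-NHX9 replicate 1 or 5 or without G-NHX9-8FA replicate 1, 2, 3 or 4 (adjusted p from 0.052 to 0.098). *Hoxa6* (log2 -0.77) was called without G-NHX9-8FA replicate 5 (edgeR adjusted p = 0.044). For *Hoxa2* and *Hoxa7* the intervals of the difference were -0.72 to 0.57 and -0.74 to 0.54, and changes within these bounds were not distinguished from no change.

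In G-NHX9-midi, *Hoxa10* was lower than in G-NHX9 by log2 -3.80 (SE 0.42, edgeR adjusted p = 5e-08), while *Hoxa3*, *Hoxa4*, *Hoxa5* and *Hoxa6* were lower by -1.36, -0.95, -1.20 and -1.37. The *Hoxa4* call was lost without G-NHX9 replicate 5 (edgeR adjusted p = 0.06). *Hoxa7* differed by -0.43 (95% interval -1.07 to 0.21), although all 5 G-NHX9-midi libraries lay below all G-NHX9 libraries. In G-NHX9-21FGAA, the differences from G-NHX9 ran from -1.29 (*Hoxa4*) to -5.78 (*Hoxa10*), and all 5 libraries lay below all G-NHX9 libraries for each gene. In G-NHX9-DDNA the same held, and *Hoxa10* (log2 -1.97, SE 0.37, edgeR adjusted p = 0.00017) and *Hoxa4* (-1.73, SE 0.27, 1e-05) differed least, whereas the other 5 genes differed by -4.01 (*Hoxa7*) to -5.55 (*Hoxa3*). The *Hoxa2* value in that comparison, -5.10, was -5.89 without G-NHX9-DDNA replicate 5.

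G-NHX9-midi and G-NHX9-8FA did not differ past the threshold for any of the 7 genes by edgeR or by DESeq2 (2.74% of all genes were lower, and 1 of the 7, *Hoxa3*, at an unadjusted p under 0.05). Differences ran from log2 -0.33 for *Hoxa7* (95% interval -0.97 to 0.31) to -0.81 for *Hoxa10* (-1.65 to 0.04), and all 7 were negative. For *Hoxa3* the interval was -1.32 to -0.05. These intervals leave room for more than a 2-fold difference for *Hoxa2*, *Hoxa3*, *Hoxa6* and *Hoxa10*. By contrast, all 7 genes were lower in G-NHX9-21FGAA than in G-NHX9-8FA (17.1% of all genes), by -0.76 (*Hoxa4*) to -2.78 (*Hoxa10*) and a median of -2.35. The *Hoxa4* call (edgeR adjusted p = 0.024) was lost without G-NHX9-8FA replicate 2, 3 or 5 or without G-NHX9-21FGAA replicate 2 or 5 (adjusted p from 0.051 to 0.081).

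The same 21 FG pairs were mutated in the full-length protein and in the midi protein, which allowed their effects to be compared. In the midi protein, all 7 genes fell with the mutation (22.2% of all genes), by a median log2 of -3.19 and by -0.71 (*Hoxa4*) to -3.45 (*Hoxa2*). The *Hoxa4* call (edgeR adjusted p = 0.033) was lost without G-NHX9-midi replicate 1, 4 or 5 or G-NHX9-midi-21FGAA replicate 1, 2, 4 or 5 (adjusted p from 0.057 to 0.099). In the full-length protein, *Hoxa10* fell by 5.78 on the log2 scale, and in the midi protein it fell by 1.98 (SE 0.53, edgeR adjusted p = 0.0028) or, without G-NHX9-midi-21FGAA replicate 2, fell by 2.93 (adjusted p = 0.00012).

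The difference between these effects was past the threshold for *Hoxa10* alone (log2 -3.80, SE 0.78, edgeR adjusted p = 0.00097, against 7.43% of all genes in that direction). It was -2.85 without G-NHX9-midi-21FGAA replicate 2 (edgeR adjusted p = 0.031). The midi protein started from 0.300 ± 0.0631 CPM of *Hoxa10* and the full-length protein from 4.24 ± 0.844 CPM, and both mutants ended at 0.077 to 0.078 CPM, near the Empty mean of 0.0633 CPM. With both mutants at that level, the size of each fall was set by its start. For this gene the difference of effects thus restated that between G-NHX9-midi and G-NHX9 (log2 -3.80). For *Hoxa5* and *Hoxa6* the effects differed by log2 0.09 (95% interval -0.59 to 0.78) and -0.10 (-1.33 to 1.13). *Hoxa2* gave 1.27 (95% interval 0.18 to 2.36, edgeR adjusted p = 0.14).

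Ordering the groups by their mean gave the same sequence for *Hoxa2*, *Hoxa3*, *Hoxa5*, *Hoxa6* and *Hoxa7*, namely G-NHX9, G-NHX9-8FA, G-NHX9-midi, G-NHX9-21FGAA, G-NHX9-midi-21FGAA, G-NHX9-DDNA and Empty. For all 5 of these genes the step from G-NHX9-midi to G-NHX9-21FGAA passed the threshold (edgeR adjusted p from 3.7e-07 for *Hoxa5* to 0.0013 for *Hoxa2*). For *Hoxa2* the groups overlapped, as 4 of 5 G-NHX9-21FGAA libraries lay below every G-NHX9-midi library. The step from G-NHX9-21FGAA to G-NHX9-midi-21FGAA passed for *Hoxa2* (edgeR adjusted p = 0.012), *Hoxa3* (0.012) and *Hoxa5* (0.0063). For *Hoxa6* and *Hoxa7* it did not pass. The step from G-NHX9 to G-NHX9-8FA passed for *Hoxa5* only (0.03), and no step among G-NHX9-8FA and G-NHX9-midi, or below G-NHX9-midi-21FGAA, passed for any of the 5 genes.

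*Hoxa10* followed another sequence, G-NHX9, G-NHX9-DDNA, G-NHX9-8FA, G-NHX9-midi, G-NHX9-21FGAA, G-NHX9-midi-21FGAA and Empty. Its steps from G-NHX9 to G-NHX9-DDNA (edgeR adjusted p = 0.00017), from G-NHX9-DDNA to G-NHX9-8FA (0.043) and from G-NHX9-midi to G-NHX9-21FGAA (0.004) passed. For *Hoxa4* the 4 fusions from G-NHX9 to G-NHX9-21FGAA came first, then Empty, G-NHX9-midi-21FGAA and G-NHX9-DDNA, and no neighbors were apart. All 7 sequences were the same without TMM scaling.

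To rank the 7 genes by level, CPM was divided by the kb of annotated exon. In G-NHX9, *Hoxa7* (6.52 ± 0.767 CPM per kb) and *Hoxa5* (6.43 ± 1.75) led, followed by *Hoxa6* (2.97 ± 0.709), *Hoxa3* (1.54 ± 0.615), *Hoxa10* (1.30 ± 0.258), *Hoxa2* (0.825 ± 0.370) and *Hoxa4* (0.610 ± 0.247). With the longest transcript as the length, *Hoxa3* (3.57 CPM per kb) moved ahead of *Hoxa6*. In Empty the picture was reversed for *Hoxa4*, which led with 0.241 ± 0.0606 CPM per kb before *Hoxa7* at 0.202 ± 0.130, although *Hoxa7* led with the longest transcript as the length. The gene that led in Empty was thus the last in G-NHX9 by exon length.

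**Figure D3:**
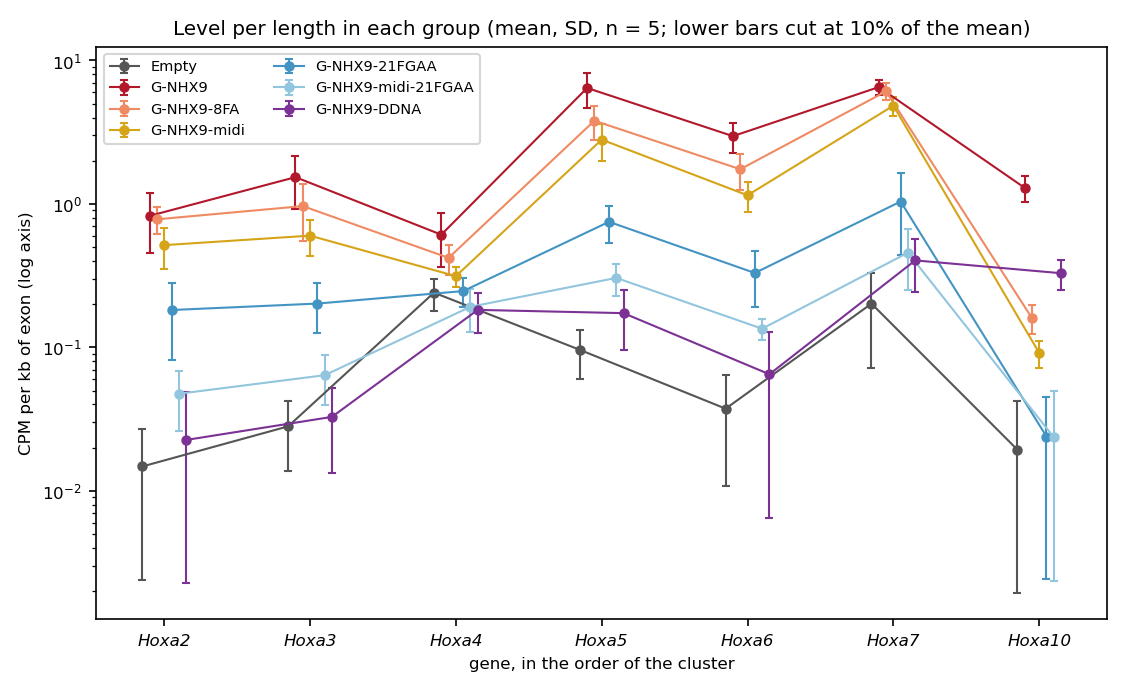
Mean CPM per kb of exon (y axis, log scale) for the 7 genes in cluster order (x axis), with a line for each group and bars for the SD of 5 libraries. *Hoxa5* and *Hoxa7* form the peaks in the fusion groups other than G-NHX9-DDNA, *Hoxa4* leads in Empty at 0.241 CPM per kb, and *Hoxa10* in G-NHX9-DDNA stays at 0.329 CPM per kb.

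As a share of the summed CPM per kb of the 7 genes, *Hoxa4* fell from 38.7% ± 7.12 in Empty to 3.06% ± 1.24 in G-NHX9, and lay between at 16.2% ± 5.68 in G-NHX9-midi-21FGAA and 15.0% ± 1.45 in G-NHX9-DDNA. *Hoxa7* took 30.2% in Empty and 32.7% to 47.1% in the fusion groups. *Hoxa10* took 6.51% ± 1.51 in G-NHX9 and 0.898% to 1.79% in G-NHX9-8FA, G-NHX9-midi, G-NHX9-21FGAA and G-NHX9-midi-21FGAA. In G-NHX9-DDNA its share was 28.0% ± 7.10, and the 5 libraries ranged from 19.9% to 35.7%, above every library of every other group. Shares of one sum are not independent of each other, and these are given as a description.

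**Figure D4:**
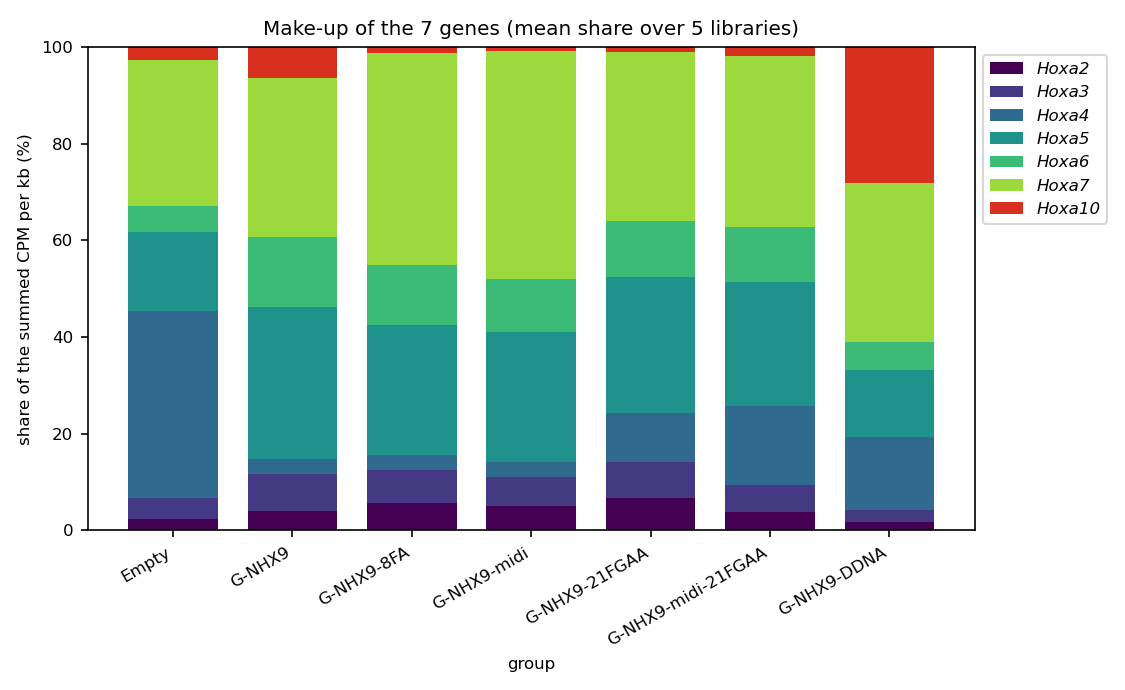
Mean share (%) of each of the 7 genes in their summed CPM per kb, stacked for each group over 5 libraries. *Hoxa4* takes 38.7% in Empty, *Hoxa7* takes 32.7% to 47.1% in the fusion groups, and in G-NHX9-DDNA *Hoxa10* takes 28.0% and *Hoxa5* 13.9%.

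*Hoxa9*, the gene between *Hoxa7* and *Hoxa10*, was set beside the 7 genes with a caution, because all fusions carry a HOXA9 part and reads from a construct could be counted as *Hoxa9*. In G-NHX9-midi-21FGAA, which carries that part too, *Hoxa9* stood at 1.12 ± 0.720 CPM against 0.975 ± 0.221 CPM in Empty (log2 0.16, SE 0.39, edgeR adjusted p = 0.82). In G-NHX9-DDNA it stood at 18.9 ± 2.67 CPM and in G-NHX9 at 96.6 ± 14.4 CPM. *Nup98*, whose product supplies the other part of the fusions, was also higher than Empty (129 ± 12.5 CPM) in G-NHX9-DDNA (207 ± 23.3 CPM, log2 0.68, edgeR adjusted p = 0.00052), G-NHX9 (log2 0.40), G-NHX9-midi (0.37) and G-NHX9-21FGAA (0.34). The G-NHX9-21FGAA call was lost without Empty replicate 1, 2 or 3 or G-NHX9-21FGAA replicate 1, 4 or 5 (edgeR adjusted p from 0.056 to 0.1). In G-NHX9-8FA (log2 0.30) and G-NHX9-midi-21FGAA (0.08) *Nup98* did not pass. The part of construct reads in the *Hoxa9* and *Nup98* values was not tested. The sum of the 7 genes was 49.3 ± 5.21 CPM in G-NHX9, 34.6 ± 5.32 in G-NHX9-8FA, 25.5 ± 4.01 in G-NHX9-midi, 6.69 ± 2.59 in G-NHX9-21FGAA, 2.86 ± 0.637 in G-NHX9-midi-21FGAA, 3.15 ± 0.838 in G-NHX9-DDNA and 1.44 ± 0.473 in Empty. These values and those relative to *Hoxa9* are not divided by length and are set side by side only between groups. Relative to *Hoxa9*, the sum was 0.136 to 0.195 in the G-NHX9-DDNA libraries, 0.418 to 0.668 in G-NHX9 and 0.690 to 7.68 in all other groups. Thus G-NHX9-DDNA held the lowest ratio of the 7 genes to *Hoxa9*, and its libraries did not overlap those of another group.

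*Hoxa10* by itself gave a different picture from that sum. Its CPM was 5.77% ± 1.57 of that of *Hoxa9* in G-NHX9-DDNA, 4.45% ± 1.11 in G-NHX9 and 5.45% ± 6.0 in Empty. It was 4.20% ± 5.10 in G-NHX9-21FGAA and 6.03% ± 3.13 in G-NHX9-midi-21FGAA, whereas it was 1.59% ± 0.407 in G-NHX9-8FA and 0.877% ± 0.144 in G-NHX9-midi. In Empty, G-NHX9-21FGAA and G-NHX9-midi-21FGAA these values rest on at most 8, 8 and 12 *Hoxa10* counts in a library. *Hoxa7* was 5.99% ± 1.73 of *Hoxa9* in G-NHX9-DDNA, 19.5% ± 1.44 in G-NHX9 and 52.5% ± 9.09 in G-NHX9-8FA. It was 40.9% ± 5.74 in G-NHX9-midi, 92.6% ± 11.1 in G-NHX9-21FGAA, 134% ± 35.6 in G-NHX9-midi-21FGAA and 57.0% ± 23.9 in Empty. Over the 35 libraries the correlation of log2 CPM was 0.855 between *Hoxa10* and *Hoxa9*, compared with 0.481 to 0.576 between *Hoxa10* and the group of *Hoxa2*, *Hoxa3*, *Hoxa5*, *Hoxa6* and *Hoxa7*. Those 5 genes correlated with each other at 0.927 to 0.964 and with *Hoxa4* at 0.711 to 0.779. The libraries share constructs, depth and scaling, and these coefficients are descriptions.

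Within groups, *Hoxa7* followed *Hoxa9* from library to library. After the group means were removed, the correlation of their log2 CPM was 0.861 over 35 libraries, and of 17165 genes *Hoxa9* ranked 1 for likeness to *Hoxa7* by this measure, a relation chosen for mention after its value was seen. In G-NHX9-21FGAA, replicates 4 and 5 were the low libraries for *Hoxa7* (1.10 and 1.22 CPM, against 3.58 to 4.75) and for *Hoxa9* (1.00 and 1.53 CPM, against 3.83 to 5.15). In G-NHX9-midi-21FGAA, replicate 5 was the lowest for both (0.395 and 0.242 CPM), and Empty replicate 2 was the highest for both (1.24 and 1.26 CPM). *Hoxa9* ranked 253 for *Hoxa10*, 634 for *Hoxa5*, 771 for *Hoxa6*, 1114 for *Hoxa2*, 5967 for *Hoxa3* and 9950 for *Hoxa4*.

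**Figure D5:**
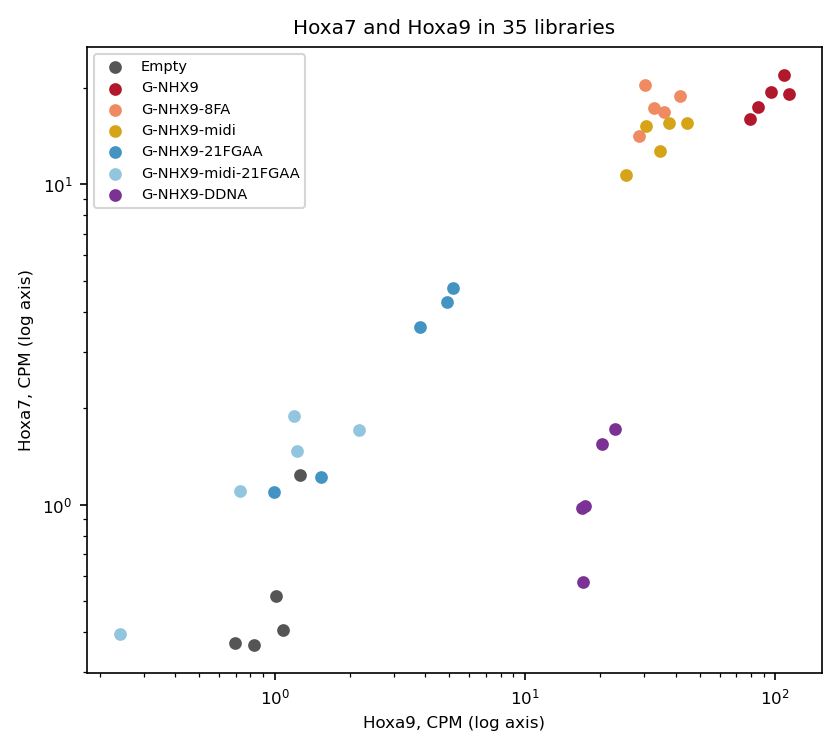
*Hoxa7* (y axis) against *Hoxa9* (x axis) in CPM, both on log axes, with a point for each of the 35 libraries colored by group. G-NHX9-DDNA libraries lie to the lower right, at 0.573 to 1.72 CPM of *Hoxa7* and 16.9 to 23.0 CPM of *Hoxa9*, and G-NHX9-21FGAA falls into 3 higher and 2 lower libraries on both axes.

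Elsewhere in the cluster the response was small. Of 15 listed genes of the rest of the cluster and its edges, 14 were in the table and 8 were tested. A pair of noncoding RNAs rose in G-NHX9, G-NHX9-8FA and G-NHX9-midi, by log2 0.64, 0.70 and 0.54 for *Hotairm1* and by 1.53, 1.39 and 1.11 for *Hoxaas3*, which is antisense to *Hoxa7* and *Hoxa3*. The G-NHX9-midi call of *Hotairm1* was lost without Empty replicate 1 or 2 or G-NHX9-midi replicate 4 (edgeR adjusted p from 0.055 to 0.083). *Hoxa11* and *Hoxa13*, at the far end beyond *Hoxa10*, did not pass the filter, with group means of at most 0.0515 and 0.0176 CPM. Among flanking genes, *Snx10* was lower in G-NHX9 (log2 -0.75), G-NHX9-midi (-0.57) and G-NHX9-21FGAA (-0.44), the last not without G-NHX9-21FGAA replicate 5 (edgeR adjusted p = 0.058). *Skap2* was higher in G-NHX9-8FA (log2 0.35) and *Hibadh* in G-NHX9-midi (log2 0.17). The *Skap2* call was lost on leaving out any of 6 libraries and the *Hibadh* call on leaving out any of the 10 (edgeR adjusted p from 0.052 to 0.14).

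Genes of proteins that act with or on the HoxA cluster gave mixed counts. Of 10 tested TALE cofactors, the PBX and MEIS class of partners, 4 were higher and 3 lower than Empty in G-NHX9 (16.9% and 15.2% of all genes), and 5 were higher and 3 lower in G-NHX9-21FGAA (14.7% and 12.5%). *Meis1*, a partner of HOXA9 in leukemia, was higher in G-NHX9 (36.3 ± 2.48 against 13.7 ± 2.61 CPM, log2 1.41, SE 0.18, edgeR adjusted p = 2.2e-07), in G-NHX9-21FGAA (log2 1.21) and in G-NHX9-DDNA (log2 0.83), but not in G-NHX9-8FA (11.3 ± 2.94 CPM) or G-NHX9-midi (11.8 ± 2.39 CPM). *Pbx3* reached 63.2 ± 7.82 CPM in G-NHX9 against 6.42 ± 0.777 CPM in Empty (log2 3.30, SE 0.15, edgeR adjusted p = 2.7e-17) and 7.31 to 10.3 CPM in the other fusions. Among these it was higher than Empty in G-NHX9-21FGAA (log2 0.69), G-NHX9-midi-21FGAA (0.58) and G-NHX9-8FA (0.44). The G-NHX9-8FA call was lost without Empty replicate 2 or G-NHX9-8FA replicate 3 (edgeR adjusted p = 0.063 and 0.059). *Meis1* in G-NHX9-21FGAA and G-NHX9-8FA thus came in the opposite order to the 7 HoxA genes.

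Of 21 listed activators of Hox clusters, 4 were higher and 2 lower in G-NHX9, 2 and 0 in G-NHX9-8FA, 4 and 1 in G-NHX9-midi, 4 and 1 in G-NHX9-21FGAA, 2 and 0 in G-NHX9-midi-21FGAA and 4 and 0 in G-NHX9-DDNA. Of 23 Polycomb genes, 9 were higher and 1 lower in G-NHX9, 6 and 1 in G-NHX9-8FA, 9 and 2 in G-NHX9-midi, 6 and 3 in G-NHX9-21FGAA, 3 and 3 in G-NHX9-midi-21FGAA and 6 and 2 in G-NHX9-DDNA. Those shares stood beside a background of 9.59% to 20.5% of all genes called higher and 7.32% to 20% called lower. The median log2 difference of either list lay between -0.20 and 0.24 in all 6 comparisons.

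Outside the 4 Hox clusters, the genes whose log2 CPM was most like that of each gene over the 35 libraries recurred from gene to gene. *Susd5* was among the closest 3 for *Hoxa2* (r = 0.925), *Hoxa5* (0.938), *Hoxa6* (0.940) and *Hoxa7* (0.949), and *B630019K06Rik* for *Hoxa3* (0.934), *Hoxa4* (0.810), *Hoxa5* (0.927) and *Hoxa6* (0.949). *Arhgap32* was among them for *Hoxa2* (0.926) and *Hoxa3* (0.932), *Gm8989* for *Hoxa2* (0.924) and *Hoxa6* (0.930), and *Il2ra* led for *Hoxa3* (0.937). *Kansl1l* completed the list for *Hoxa5* (0.927), and *B4galt4* (0.937) and *Tgm3* (0.929) that for *Hoxa7*. *Hoxa4* was closest to *Kcnq3* (0.814) and *Jag2* (0.813), and *Hoxa10* to *Jag2* (0.806), *Slc25a15* (0.794) and *B4galnt4* (0.790), so that no gene outside the clusters came as near to *Hoxa4* or *Hoxa10* as to the other 5 genes.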

How the data were processed

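Total RNA of 35 libraries (7 groups of 5) was sequenced after a stranded total RNA preparation, per the labels. The deposited table held whole-number read counts per gene, made by the authors before deposit. Their processing notes name STAR 2.7.0d, HTSeq 0.11.2, DESeq2 and mm10, and the annotation release, strand setting and handling of ambiguous reads were not given in the sources used here. The deposited counts were used as they stood, all 35 value columns were mapped, and 11520 genes at 0 in all libraries fell to the filter. Of all counts, 99.96% lay in the 17166 genes tested.

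Counts were fitted with edgeR 4.0.16 (R 4.3.3, limma 3.58.1) by the quasi-likelihood test on all 35 libraries, with filterByExpr, TMM factors (0.899 to 1.11) and Benjamini-Hochberg adjustment over all tested genes of each comparison at 0.05. The SE was the log2 fold change divided by the root of F, and intervals were 95% intervals of the same fit. DESeq2 1.42.0 was an alternative, beside library sizes without TMM, RLE factors, no filter, a mean of at least 1 CPM, a replicate block, fits of only the groups compared and fits without each library in turn. Figures were drawn with Python 3.11.15 and matplotlib 3.10.9. Likeness of genes was taken on log2 CPM (prior count 2).

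Within groups, no pair of libraries among 70 agreed within sampling noise (lowest chi-square per degree of freedom 22.5). The study's methods describe transductions in triplicate, whereas the labels list 5 libraries a group and tie none to a transduction, so p-values measure the spread between these libraries, which may be technical. Same-numbered libraries deviated together in 5 of 13 comparisons, in which every pair correlated above 0.1: G-NHX9, G-NHX9-midi-21FGAA and G-NHX9-DDNA against Empty, and G-NHX9-21FGAA and G-NHX9-DDNA against G-NHX9 (mean correlation over all same-numbered pairs 0.232, other pairs -0.0571). The pairing comes from these data, since the labels give only numbers.

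All 7 genes were tested and counted in each comparison, but not every gene's value is printed. Some listed results are not reported here. Other genes are named if they lie in the rest of the cluster, in lists of cofactors, activators and Polycomb genes, or are the 3 genes outside the Hox clusters most correlated with a gene (mean of at least 1 CPM). The 7 genes and all lists were chosen with earlier results of these data known. Antisense RNAs and *Hoxa9* were matched by their identifiers. Sequence windows are from RefSeq (GRCm38.p6) and gene coordinates from GENCODE M21 on GRCm38, the build that mm10 denotes.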

Additional observations from a re-analysis of the deposited data

Results flagged for a closer look

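A library stood far from the others of its group in 4 of the 49 combinations of 7 genes and 7 groups, where the gap to the nearest library exceeded 0.71 of the group's range. At this limit chance gives such a library in about 0.05 of groups. *Hoxa2* in G-NHX9-21FGAA replicate 1 stood at 0.638 CPM against 0.197 to 0.274 CPM in the others. *Hoxa4* in Empty replicate 5 stood at 0.551 CPM against 0.312 to 0.367 CPM. *Hoxa6* in G-NHX9-midi replicate 4 stood at 0.588 CPM against 1.06 to 1.20 CPM. *Hoxa7* in Empty replicate 2 stood at 1.24 CPM against 0.365 to 0.520 CPM, and the same library held most of the Empty counts of *Hoxa10*.

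The effect of the 21 mutated FG pairs on *Hoxa10* differed between the full-length and the midi protein by log2 -3.80, by a test of the difference itself. The midi protein started from 0.300 CPM and both mutants ended near the level of Empty. The difference of effects thus restated that between G-NHX9-midi and G-NHX9, and is no separate result on the FG pairs.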

How the results depend on the processing

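A filter at a mean of 1 CPM kept only *Hoxa3*, *Hoxa5* and *Hoxa7* of the 7 genes, and the counts of genes called fell with it: to 3 each for G-NHX9, G-NHX9-8FA, G-NHX9-midi and G-NHX9-21FGAA against Empty, 0 for G-NHX9-DDNA against Empty, 1 for G-NHX9-8FA and 2 for G-NHX9-midi against G-NHX9, 3 each for G-NHX9-21FGAA and G-NHX9-DDNA against G-NHX9, for the 21 FG pairs in the midi protein and for G-NHX9-21FGAA against G-NHX9-8FA, and 0 for the difference of effects. The count for G-NHX9-midi-21FGAA against Empty (2) was 4 without TMM, 4 with DESeq2, 4 with the replicate block, 1 with no filter and 1 to 2 without each library in turn. That for G-NHX9-DDNA against Empty (1) was 2 without TMM, 2 with DESeq2, 1 to 2 without each library in turn and 2 without the 4 libraries that stood apart, a setting chosen after seeing the data. That for G-NHX9-8FA against G-NHX9 (2) was 4 with the replicate block, in a comparison whose numbers do not pair the samples, and 1 to 3 without each library in turn. In the paired comparisons the block changed no other count of the 7 genes. The cause of these changes was not tested, other than the fewer genes under the filter.

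Signs turned on leaving out 1 library only for differences that were not called. Against Empty, *Hoxa4* in G-NHX9-21FGAA ranged from -0.038 to 0.22, *Hoxa10* from -0.37 to 1.10 in G-NHX9-21FGAA and from -0.81 to 1.08 in G-NHX9-midi-21FGAA, *Hoxa9* in G-NHX9-midi-21FGAA from -0.26 to 0.45, and in G-NHX9-DDNA *Hoxa2* from -0.22 to 0.98 and *Hoxa3* from -0.13 to 0.51. *Hoxa2* in G-NHX9-8FA against G-NHX9 ranged from -0.21 to 0.22, and the difference of effects from -0.087 to 0.26 for *Hoxa5* and from -0.28 to 0.15 for *Hoxa6*. Of 1360 log2 fold changes without 1 library, 1277 kept their sign and side of the threshold, and of 973 under the other settings 928 did. With no filter, *Hoxa4* in G-NHX9-8FA (adjusted p = 0.082, edgeR) and *Hoxa6* in G-NHX9-midi-21FGAA (0.064) were no longer called against Empty. Depth limits *Hoxa2*, *Hoxa3*, *Hoxa5*, *Hoxa6* and *Hoxa10*, which held at most 9 counts in any Empty library.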
